A study of Mus musculus with 32 samples.

Results

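The Toll-like receptors described here are Tlr1, Tlr2, Tlr3, Tlr4, Tlr5, Tlr6, Tlr7, Tlr8, Tlr9 and Tlr13, the rows of the count table whose Ensembl identifiers map to these symbols. These are 10 genes of 54281 in the table, and all 10 were among the 15257 genes tested after the filter on low counts. The rule used only the symbols. RNA sequencing was performed on bone marrow derived macrophages (BMDMs), cells grown from mouse marrow in medium with supernatant of L929 cells, which supplies the macrophage growth factor M-CSF. The study asked how gene expression changes with time once loss of the DNA exonuclease TREX1 is induced in these cells.

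The Trex1 FL/FL cells carried loxP-flanked Trex1 on both chromosomes, and the Trex1 WT/FL controls carried 1 such allele beside a wild-type allele. Cells of both genotypes carried R26 CreERT2, a Cre recombinase expressed from the Rosa26 locus that is active only in the presence of 4-hydroxytamoxifen (4-OHT). Part of the cultures received 4-OHT at 2 µg/ml over 22 h and the others none. Cells were harvested on days 1, 2, 3 and 4, which the paper counts from the end of the 4-OHT exposure. The 32 libraries therefore form 16 groups of 2 libraries each, 1 for every combination of genotype, treatment and day. Since Rosa26 is active in nearly all cell types and WT/FL cells also lose their floxed allele, the controls after 4-OHT are cells with a single intact Trex1 allele rather than unmanipulated cells. Whether the 2 libraries of a group came from separate mice or cultures is not given in the sources used here, so the p-values measure the spread between these libraries, which may be technical.

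Toll-like receptors are membrane proteins of innate immune cells that bind conserved microbial molecules. TLR1, TLR2, TLR4, TLR5 and TLR6 sit on the cell surface and bind lipoproteins, lipopolysaccharide or flagellin, while TLR3, TLR7, TLR8, TLR9 and TLR13 sit in endosomes and bind nucleic acids. All signal through MyD88 except TLR3, which uses TRIF, and TLR4, which uses both, and they lead to inflammatory cytokines and type I interferon (IFN). TREX1 degrades DNA in the cytosol, where the sensor is cGAS, a protein outside this family.

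The labels were first checked against Trex1 itself. In FL/FL cells after 4-OHT its counts were 0 in both libraries on days 1, 3 and 4, and 14 and 9 on day 2, while the WT/FL 4-OHT libraries held 758 to 3622 counts and the untreated libraries of both genotypes 1174 to 6553. Total counts ranged from 35120505 to 63760884 per library with a median of 44841991. The summed level of 8 macrophage genes was 4393 to 14482 CPM, counts per 1000000 counts of the genes tested, whereas sums over markers of neutrophils (4.65 to 18.8 CPM), B cells (1.31 to 6.58 CPM, nearly all Cd79b), dendritic cells (0.559 to 2.52 CPM), stromal cells (0.0871 to 2.27 CPM), T cells (up to 0.541 CPM), mast cells (up to 0.198 CPM) and erythroid cells (up to 0.205 CPM) were low. In bulk RNA, a change in the number of cells of a type and a change in RNA per cell cannot be told apart.

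In GRCm39, the surface receptors are encoded on chromosome 5 at 65082022-65090941 (Tlr1) and 65108704-65203497 (Tlr6), both on the minus strand, chromosome 3 at 83743576-83749074 (Tlr2, minus), chromosome 4 at 66745783-66849936 (Tlr4, plus) and chromosome 1 at 182782311-182805500 (Tlr5, plus). Of the endosomal receptors, Tlr8 at 166024184-166047325 and Tlr7 at 166086758-166113605 are neighbours on the minus strand of chromosome X, and Tlr13 lies on the plus strand of X at 105186810-105204533. Tlr3 lies on chromosome 8 at 45848702-45864117 (minus) and Tlr9 on chromosome 9 at 106099797-106104082 (plus). Tlr6 overlaps the antisense gene Fam114a1 over 72911 bases, Tlr3 the antisense gene Gm45542 over 698 bases, and Tlr4 shares 1557 and 752 bases with 2 predicted genes on its own strand. Whether counting used the strand is not given in the sources used here, so reads of such partners could not be told apart.

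On day 1 the receptors had the same order in all groups, apart from Tlr3 and Tlr9, whose libraries overlapped everywhere. Levels are compared between genes as CPM per kb of exon, and in untreated WT/FL cells on day 1 Tlr13 was highest at 57.6, followed by Tlr2 at 43.8, Tlr7 at 14.3, Tlr4 at 10.3, Tlr8 at 9.35, Tlr1 at 6.84, Tlr9 at 3.00, Tlr3 at 2.92, Tlr6 at 2.33 and Tlr5 at 0.687 CPM per kb (means, n = 2). The libraries of Tlr4 and Tlr8 overlapped in this order, and so did those of Tlr9 and Tlr3. Every other pair of neighbours was separate. By day 4 in the same untreated WT/FL cells Tlr9 had moved up to 26.0 and Tlr8 to 42.6 CPM per kb. Tlr3, Tlr6 and Tlr5 remained low at 4.65, 3.92 and 1.90 CPM per kb. In FL/FL cells on day 4 after 4-OHT the 4 highest genes were all endosomal receptors, with Tlr13 at 117, Tlr7 at 86.6, Tlr8 at 63.0 and Tlr9 at 47.9 CPM per kb, the last overlapping the next in order, Tlr2 at 45.6 CPM per kb. In WT/FL cells on day 4 after 4-OHT these 4 genes and Tlr2 were also the 5 highest. They stood at 78.3 (Tlr13), 53.9 (Tlr2), 46.9 (Tlr7), 46.0 (Tlr8) and 32.4 CPM per kb (Tlr9).

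**Figure D1:**
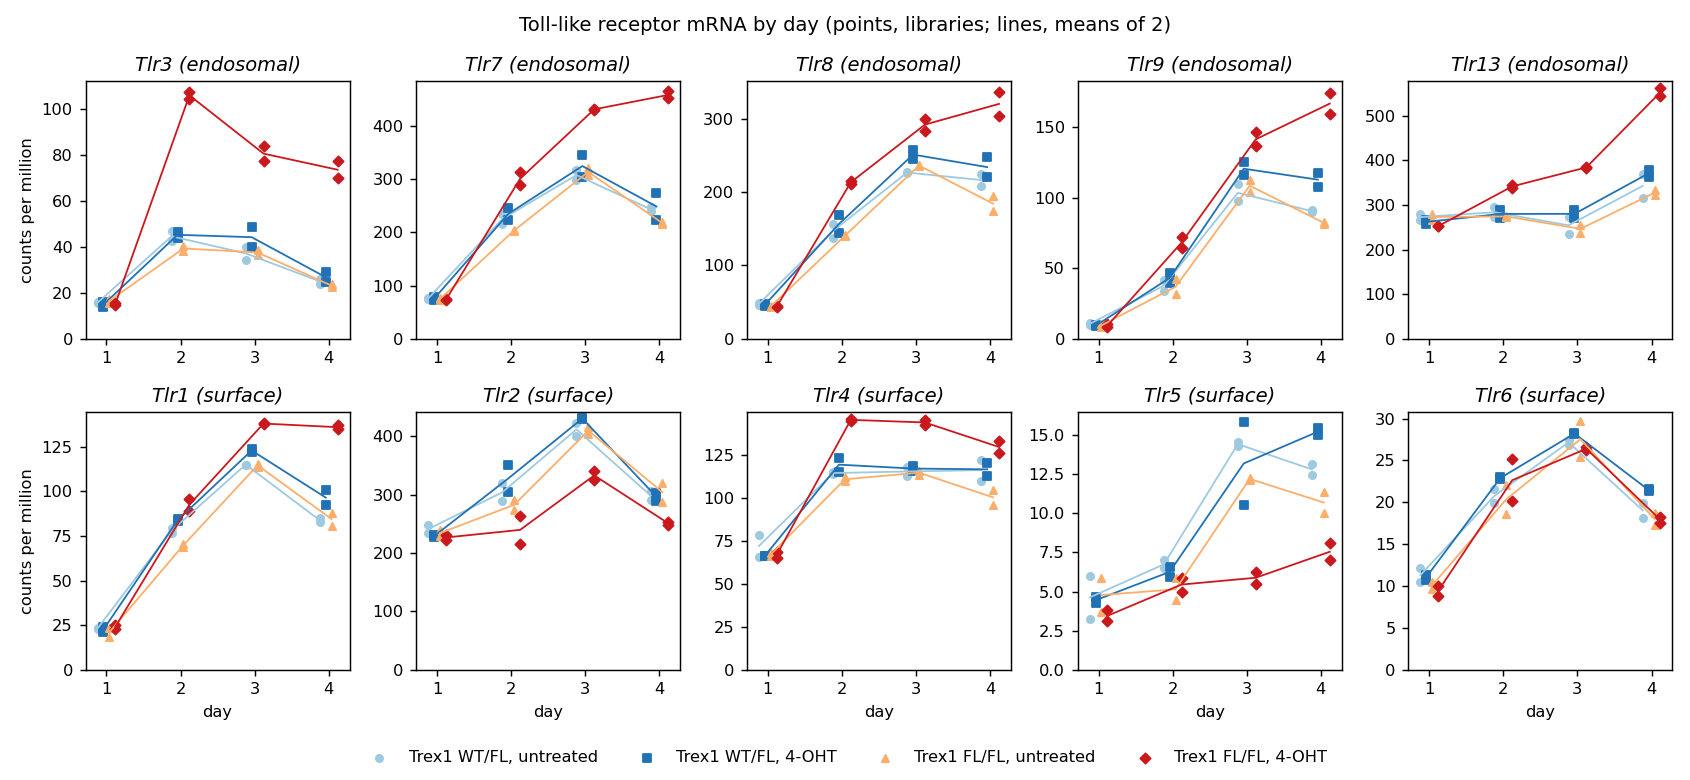
Each panel shows 1 receptor, with the day on the x axis and CPM on the y axis, a point for each library and a line through the means of 2 libraries for each genotype and treatment. In the panel of Tlr3 the FL/FL 4-OHT libraries stand at 69.7 and 77.2 CPM on day 4, above all other libraries of that day, and in that of Tlr5 they stand at 8.08 and 6.99 CPM, below all others.

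Among the surface receptors, Tlr2, which pairs with TLR1 or TLR6 to bind bacterial lipoproteins, was lower in FL/FL than in WT/FL cells after 4-OHT. The 2 FL/FL 4-OHT libraries held 216 and 263 CPM on day 2, and the WT/FL 4-OHT libraries 305 and 350.4 CPM. On day 3 the values were 325 and 340.4 CPM against 429.9 and 430.2 CPM. The libraries did not overlap on either day, and Tlr2 was lower in FL/FL cells by 0.45 on the log2 scale on day 2 (SE 0.07, adjusted p = 6.55e-05) and by 0.37 on day 3 (SE 0.07, adjusted p = 0.000571). Here and throughout, adjusted p-values come from the quasi-likelihood test of edgeR, adjusted by Benjamini-Hochberg across all 15257 genes, and a gene is called at an adjusted p below 0.01. On day 4 the libraries held 249 and 253 CPM against 289.7 and 303 CPM, a log2 difference of -0.24 (SE 0.07) with an adjusted p of 0.0143. Without the first FL/FL 4-OHT library the differences on days 2 and 3 were -0.31 and -0.34 and no longer called.

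Tlr5, the flagellin receptor, had the lowest level per kb of the family and was the most reduced in FL/FL against WT/FL cells after 4-OHT. On day 3 its FL/FL 4-OHT libraries held 5.50 and 6.26 CPM, from 188 and 366 counts, and the WT/FL 4-OHT libraries 15.8 and 10.5 CPM, from 831 and 472 counts. On day 4 the values were 8.08 and 6.99 CPM against 15.4 and 15.0 CPM. Both libraries of FL/FL cells lay below both of WT/FL cells on each day. Tlr5 was lower in FL/FL cells by 1.16 on day 3 (SE 0.22, adjusted p = 0.000437) and by 1.01 on day 4 (SE 0.22, adjusted p = 0.000886) on the log2 scale. On days 1 and 2 the log2 differences were -0.37 and -0.20 and were not called. The day 3 call was lost without the first WT/FL library (-0.84) or the first FL/FL library (-1.08), and the day 4 call without the second FL/FL library (-0.91).

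Tlr4, the receptor for lipopolysaccharide, was higher in FL/FL cells after 4-OHT on the middle days. Its FL/FL 4-OHT libraries held 145 and 146 CPM on day 2 and 146 and 142 CPM on day 3, and the WT/FL 4-OHT libraries 124 and 115 CPM on day 2 and 118 and 116 CPM on day 3. Tlr4 was thus higher in FL/FL cells by 0.29 (SE 0.06, adjusted p = 0.00272) and 0.30 (SE 0.06, adjusted p = 0.00136) on the log2 scale with no overlap of libraries, which is 1.22-fold and 1.23-fold. On day 4 the log2 difference was 0.15 (SE 0.07, adjusted p = 0.0794). Leaving out the second WT/FL or either FL/FL library on day 2 gave 0.24 to 0.29 and ended the call, and so did leaving out either WT/FL or the first FL/FL library on day 3, with 0.28 to 0.31.

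Tlr1 and Tlr6 are close relatives whose products each pair with TLR2. Tlr1 was called on day 4, with 135 and 137 CPM against 92.5 and 100.4 CPM in WT/FL cells after 4-OHT, a log2 difference of 0.49 (SE 0.08, adjusted p = 8.12e-06). On days 2 and 3 its log2 differences were 0.14 and 0.17, with adjusted p of 0.268 and 0.13, although the libraries did not overlap. Tlr6 was called on no day: its log2 differences from day 1 to day 4 were -0.23, -0.02, -0.10 and -0.26, and on day 4 it stood at 17.5 and 18.3 CPM against 21.6 and 21.4 CPM (adjusted p = 0.0623). The values of this pair carry an uncertainty from their sequence, since 19.5% of the 31-base words in the transcripts of Tlr1 and 12.9% of those of Tlr6 also occur in other genes, above all in each other. Transcripts of the remaining receptors shared 0 to 8.42% of their words with other genes, the highest being Tlr7.

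Among the endosomal receptors, Tlr3, which binds double-stranded RNA, changed most. Its FL/FL 4-OHT libraries held 15.4 and 14.8 CPM on day 1, 104 and 107 CPM on day 2, 83.6 and 77.3 CPM on day 3 and 69.7 and 77.2 CPM on day 4. The WT/FL 4-OHT libraries held 13.7 and 15.9 CPM on day 1, 46.5 and 43.8 CPM on day 2, 39.6 and 48.6 CPM on day 3 and 24.5 and 28.9 CPM on day 4. The genotypes overlapped on day 1 and were far apart from day 2 on. Tlr3 was higher in FL/FL cells by 1.23 on day 2 (SE 0.09, adjusted p = 4.72e-10), 0.87 on day 3 (SE 0.09, adjusted p = 1.36e-07) and 1.46 on day 4 (SE 0.10, adjusted p = 2.86e-12) on the log2 scale, or 2.34-fold, 1.82-fold and 2.75-fold. These calls stood in every fit that left out 1 library, with values of 1.19 to 1.27, 0.73 to 1.02 and 1.34 to 1.58.

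Tlr7, a receptor for single-stranded RNA, was higher in FL/FL cells after 4-OHT on 3 days. Its FL/FL 4-OHT libraries held 288 and 313 CPM on day 2, 430.3 and 433 CPM on day 3 and 452 and 465 CPM on day 4. The WT/FL 4-OHT libraries held 247 and 223 CPM on day 2, 305 and 345 CPM on day 3 and 223 and 275 CPM on day 4. The libraries did not overlap on any of these days, and the log2 difference was 0.36 (SE 0.07, adjusted p = 0.000989), 0.41 (SE 0.07, adjusted p = 0.000168) and 0.88 (SE 0.07, adjusted p = 3.21e-10). Without the second WT/FL or the second FL/FL library the day 2 difference was 0.29 or 0.30 and not called, and without the first WT/FL library that of day 3 was 0.32 and not called.

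Tlr13, which binds bacterial ribosomal RNA, was higher in FL/FL cells after 4-OHT on days 2, 3 and 4. Its FL/FL 4-OHT libraries held 344 and 339 CPM on day 2, 383 and 385 CPM on day 3 and 544 and 562 CPM on day 4. The WT/FL 4-OHT libraries held 289 and 270.2 CPM, 289 and 271 CPM, and 363 and 379 CPM on the same days. With no overlap, the log2 difference was 0.29 on day 2 (SE 0.07, adjusted p = 0.00396), 0.46 on day 3 (SE 0.07, adjusted p = 1.69e-05) and 0.58 on day 4 (SE 0.07, adjusted p = 1.56e-07). The day 2 call was lost on leaving out the second WT/FL library (0.24) or either FL/FL library (0.28 and 0.30).

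Tlr8 and Tlr9, a relative of TLR7 and the receptor for unmethylated DNA, were called on days 2 and 4 but not on day 3. For Tlr8 the FL/FL 4-OHT libraries held 212 and 216 CPM on day 2, 285 and 301 CPM on day 3 and 304 and 337 CPM on day 4. The WT/FL 4-OHT libraries held 169 and 145 CPM, 246 and 257 CPM, and 221 and 248 CPM. The log2 differences were 0.45 (SE 0.07, adjusted p = 7.36e-05), 0.22 (SE 0.07, adjusted p = 0.0377) and 0.45 (SE 0.07, adjusted p = 2.25e-05), with separate libraries each day. Without the second WT/FL library the day 2 difference of Tlr8 was 0.34 and not called.

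For Tlr9 the FL/FL 4-OHT libraries held 71.8 and 64.3 CPM on day 2, 146 and 136 CPM on day 3 and 159 and 174 CPM on day 4. The WT/FL 4-OHT libraries held 46.5 and 39.5 CPM, 116 and 125 CPM, and 108 and 118 CPM. The libraries were separate, and the log2 differences were 0.66 (SE 0.14, adjusted p = 0.00178), 0.23 (SE 0.13, adjusted p = 0.263) and 0.56 (SE 0.13, adjusted p = 0.00233). The day 2 call was lost without the second WT/FL (0.55) or first FL/FL library (0.58), and that of day 4 without the first WT/FL or the second FL/FL library (both 0.50). Tlr9 lies on chromosome 9 at 2.78 Mb from Trex1 in GRCm39, so the floxed allele and the copy of Tlr9 beside it tend to be inherited together. In untreated cells, which carry the same alleles, the log2 genotype difference of Tlr9 was -0.14 on day 4 (SE 0.13, adjusted p = 0.687). Whether this linkage has a part in the values of Tlr9 was not tested.

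**Figure D2:**
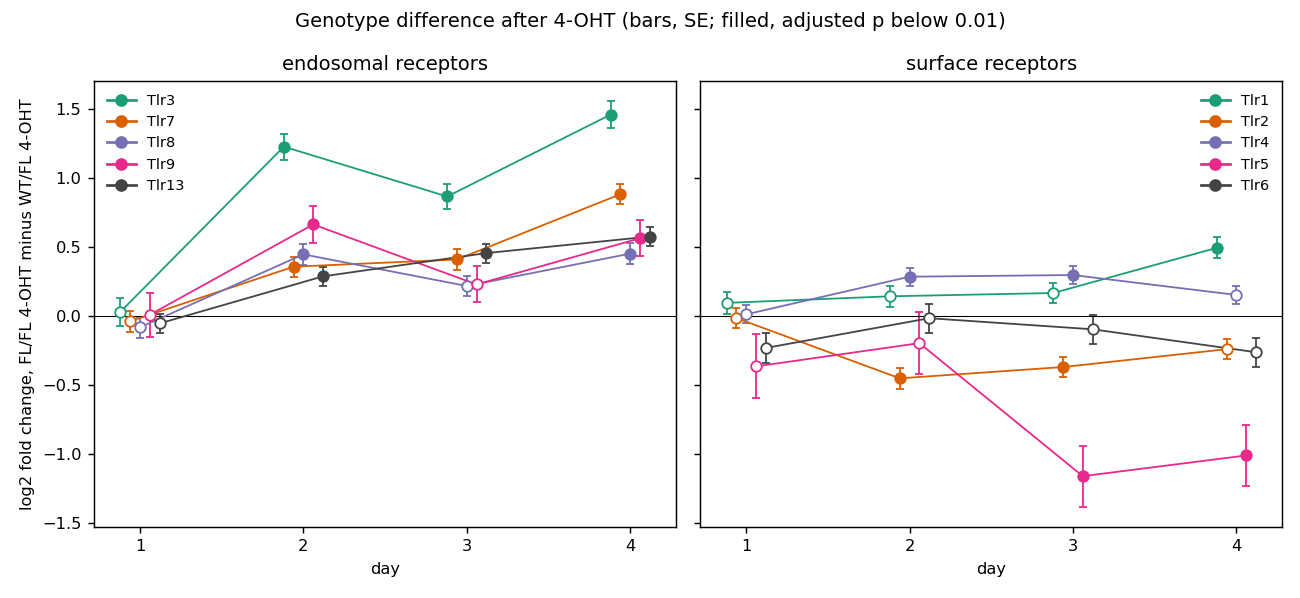
The day is on the x axis and the log2 fold change of FL/FL over WT/FL cells after 4-OHT on the y axis, with bars for the standard error and filled points for an adjusted p below 0.01, for the 5 endosomal receptors on the left and the 5 surface receptors on the right. All endosomal values are above 0 on days 2 to 4 and reach 1.46 for Tlr3, whereas the surface values run from -1.16 for Tlr5 to 0.49 for Tlr1.

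Counted over the family, no receptor was called between the genotypes after 4-OHT on day 1, where 0.0197% of all genes tested were (edgeR, 1 receptor, Tlr6, at an unadjusted p below 0.05; DESeq2 also called 0 receptors). On day 2, 6 receptors were higher and 1 was lower, beside 5.69% and 2.48% of all genes. On day 3, 4 were higher and 2 lower, beside 6.69% and 5.42%. On day 4, 6 were higher and 1 was lower, beside 9.84% and 11.7%. All called endosomal receptors were higher, namely 5 of 5 on day 2, 3 of 5 on day 3 and 5 of 5 on day 4, and their median log2 difference was 0.45, 0.41 and 0.58. Among the 5 surface receptors the calls were Tlr4 upward and Tlr2 downward on day 2, Tlr4 upward and Tlr2 and Tlr5 downward on day 3, and Tlr1 upward and Tlr5 downward on day 4, with medians of -0.02, -0.10 and -0.24. Over all genes tested the median was -0.01, -0.01 and -0.04. None of the 10 passed the study's additional threshold of an absolute log2 fold change above 1.5, which 2.98% of all genes passed on day 4.

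The mean log2 CPM of each class separated the libraries in the same way. On day 1 the endosomal mean exceeded the surface mean by 0.52 to 0.74 in all 8 libraries. From day 2 to day 4 the gap was 0.97 to 1.26 in the libraries of the other 3 conditions. In FL/FL cells after 4-OHT it was 1.71 and 1.75 on day 2, 1.84 and 1.78 on day 3 and 2.07 and 2.21 on day 4, above every other library. A mean over few genes follows its most changed members, here Tlr3 and Tlr5, and it is given as a description.

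**Figure D3:**
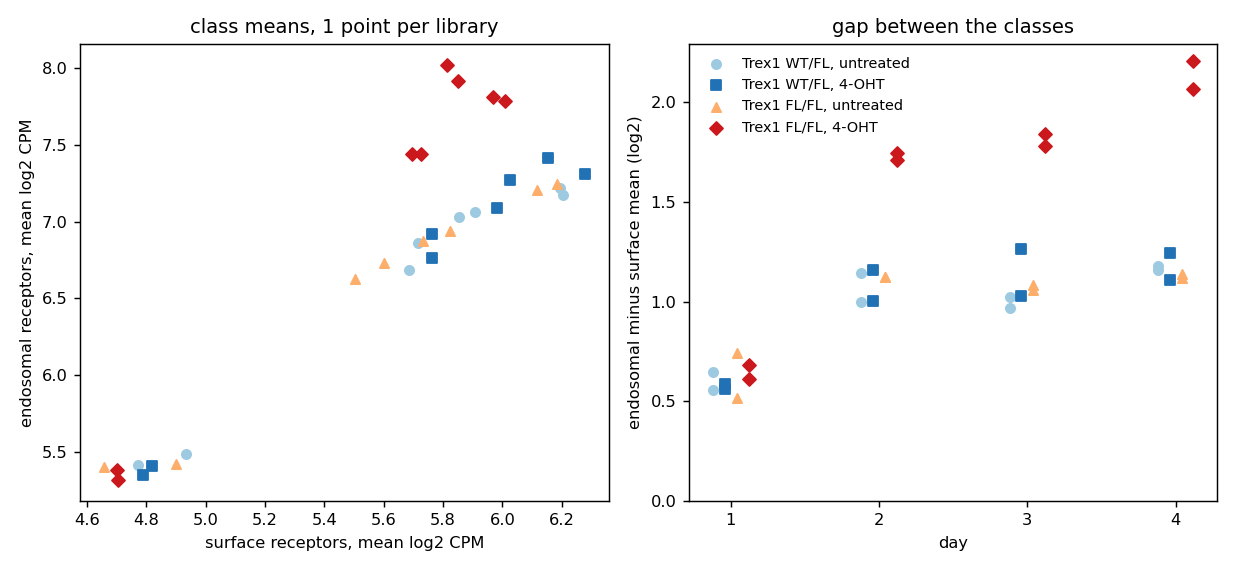
On the left each point is a library, with the mean log2 CPM of the 5 surface receptors on the x axis and that of the 5 endosomal receptors on the y axis, and on the right the difference of both means is drawn against the day. The FL/FL 4-OHT libraries of days 2 to 4 lie at 1.71 to 2.21, above all other libraries.

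To set the genotype difference after 4-OHT against that already present without it, the difference in untreated cells was subtracted. Tlr3 passed this test on day 2 with 1.41 (SE 0.13, adjusted p = 7.8e-08), on day 3 with 0.85 (SE 0.13, adjusted p = 0.00012) and on day 4 with 1.57 (SE 0.14, adjusted p = 2.88e-09) on the log2 scale. Tlr7 passed with 0.50 on day 2 (adjusted p = 0.00194) and 1.05 on day 4 (adjusted p = 2.51e-08), Tlr8 with 0.51 on day 2 (adjusted p = 0.00166) and 0.69 on day 4 (adjusted p = 2e-05), and Tlr13 with 0.50 on day 3 (adjusted p = 0.00101) and 0.64 on day 4 (adjusted p = 1.52e-05). On day 4 Tlr1 with 0.48 (adjusted p = 0.00164) and Tlr4 with 0.36 (adjusted p = 0.00581) passed too. The direct day 4 difference of Tlr4 was 0.15 and not called. Its untreated libraries of that day held 105 and 96.1 CPM in FL/FL and 122 and 110 CPM in WT/FL cells. All 5 endosomal receptors were also lower in untreated FL/FL cells on day 4, with a median of -0.14 and none called. Subtracting these negative values raised the results. Of the 5 surface receptors 2 were higher there. Tlr9 gave 0.69, 0.16 and 0.70 with adjusted p of 0.0349, 0.707 and 0.012, and neither Tlr2 (-0.35, -0.36 and -0.27) nor Tlr5 (0.19, -0.92 and -0.75) passed on any day. Thus 0, 3, 2 and 6 receptors passed on days 1 to 4, all upward, beside 0.00655%, 4.04%, 4.65% and 10.4% of all genes. On leaving out 1 library these counts ran from 1 to 4 on day 2, 1 to 3 on day 3 and 4 to 6 on day 4.

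Some of these calls did not stand in every fit that left out 1 library. Tlr7 on day 2 was not called without the first untreated WT/FL (0.44), second 4-OHT WT/FL (0.43), second untreated FL/FL (0.50) or second 4-OHT FL/FL library (0.44). Tlr8 on day 2 was not called without the first untreated WT/FL (0.41), second 4-OHT WT/FL (0.41) or second 4-OHT FL/FL library (0.50), and Tlr13 on day 3 without the first untreated WT/FL (0.38) or second untreated FL/FL library (0.45). On day 4 the call of Tlr1 was lost without the first 4-OHT WT/FL (0.43) or first untreated FL/FL library (0.42), and that of Tlr4 in 4 of 8 such fits (0.29 to 0.32). Tlr3, and on day 4 also Tlr7, Tlr8 and Tlr13, kept their calls in all 8 fits of their day.

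No receptor was called in WT/FL cells between 4-OHT and untreated on any day, beside 0.00655%, 0.0918%, 0.341% and 0.216% of all genes on days 1 to 4 (edgeR; unadjusted p below 0.05 for 0, 0, 1 and 2 receptors, and 0 called by DESeq2). Without the filter on low counts 1 was called on day 4. The largest value on day 4 was that of Tlr9 at 0.32 (SE 0.13, adjusted p = 0.571). Likewise, untreated FL/FL and WT/FL cells differed in 0 receptors on each day, beside 0%, 0%, 0% and 0.0655% of all genes (unadjusted p below 0.05 for 0, 1, 0 and 3 receptors, and 0 called by DESeq2).

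In FL/FL cells, 0 receptors were called between 4-OHT and untreated on day 1, beside 0.0131% of all genes (edgeR; 1 receptor at an unadjusted p below 0.05, and 0 called by DESeq2). On day 2, 7 receptors were higher and 0 lower after 4-OHT, beside 7.49% and 3.59%. On day 3, 6 were higher and 2 lower, beside 8.12% and 7.57%, and on day 4, 7 were higher and 1 lower, beside 10.2% and 11.2%. The day 4 rises were 1.67 for Tlr3 (SE 0.10), 1.08 for Tlr7 (SE 0.07), 1.02 for Tlr9 (SE 0.13), 0.80 for Tlr8 (SE 0.07), 0.76 for Tlr13 (SE 0.07), 0.69 for Tlr1 (SE 0.08) and 0.37 for Tlr4 (SE 0.07), and Tlr2 fell by 0.28 (SE 0.07). Tlr3 was the single receptor past an absolute log2 fold change of 1.5 there. Tlr5 stood at -0.50 (SE 0.22) on day 4, not called, and was lower after 4-OHT by 1.05 on day 3 (SE 0.22). Of the calls on day 2, that of Tlr13 was lost without either untreated library or the first 4-OHT library (0.30 to 0.32), and that of Tlr1 without the second 4-OHT library (0.35). On day 3, where each fit without 1 library called 5 receptors, the calls of Tlr1 (0.26 to 0.28) and Tlr2 (-0.33 to -0.27) were lost in all 4 fits. That of Tlr8 was lost without either untreated or the second 4-OHT library (0.27 to 0.31), and that of Tlr5 without the first 4-OHT library (-0.96). On day 4 the call of Tlr2 was lost without the first untreated or either 4-OHT library (-0.29 to -0.20). The FL/FL 4-OHT libraries serve both this comparison and that between genotypes, so the 2 sets of values are not independent.

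**Figure D4:**
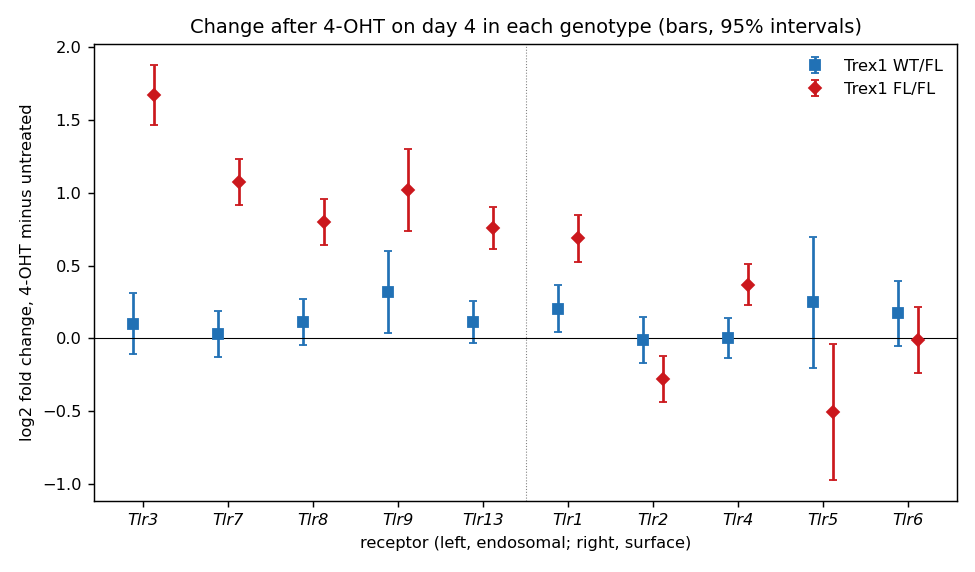
The x axis lists the receptors, endosomal ones on the left, and the y axis gives the log2 fold change of 4-OHT over untreated cells on day 4, with squares for WT/FL and diamonds for FL/FL cells and bars for 95% intervals. The WT/FL values run from -0.01 to 0.32 and the FL/FL values from -0.50 for Tlr5 to 1.67 for Tlr3.

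The genotype difference also changed from day to day. This test of the step from the previous day was chosen after the data were seen. From day 1 to day 2 it rose for Tlr3 by 1.20 (SE 0.14, adjusted p = 2.51e-06) and for Tlr8 by 0.53 (SE 0.11, adjusted p = 0.00204), from day 2 to day 3 for 0 receptors, and from day 3 to day 4 for Tlr3 by 0.59 (SE 0.13, adjusted p = 0.00482) and Tlr7 by 0.47 (SE 0.10, adjusted p = 0.0039). Beside these counts of 2, 0 and 2, 3.02%, 0.905% and 3.7% of all genes were called. For the step to day 3, 4 receptors had an unadjusted p below 0.05 by edgeR and 0 were called by DESeq2. The steps to day 4 were not called in the fit of the 16 libraries with 4-OHT alone (0.59 for Tlr3 and 0.47 for Tlr7). On leaving out 1 library, that of Tlr3 was lost without the second WT/FL or second FL/FL library of day 3, or the first WT/FL or second FL/FL library of day 4 (0.44 to 0.54). That of Tlr7 was lost in those 4 fits and without either first FL/FL library (0.33 to 0.49). The day 2 step of Tlr8 was lost without the first WT/FL or first FL/FL library of day 1, or the second of either genotype on day 2 (0.42 to 0.51). For Tlr5 the fall to day 3 was -0.96 (SE 0.32, adjusted p = 0.108).

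The receptors also rose with time in culture. Between day 1 and day 4 all 10 rose in untreated WT/FL cells, in WT/FL cells after 4-OHT and in untreated FL/FL cells, and 9 rose in FL/FL cells after 4-OHT, beside 27.5%, 27.7%, 27.7% and 28.3% of all genes. Tlr9 rose most: in untreated WT/FL cells it went from 11.0 and 9.85 CPM on day 1 to 41.5 and 33.5 CPM on day 2, 97.3 and 109 CPM on day 3 and 89.7 and 91.0 CPM on day 4. Its log2 change from day 1 to day 4 was 3.11 there (SE 0.15), 3.62 in WT/FL cells after 4-OHT (SE 0.15), 3.12 in untreated FL/FL cells (SE 0.15) and 4.18 in FL/FL cells after 4-OHT (SE 0.16). Tlr8 rose by 2.07 to 2.34, Tlr1 by 1.86 to 2.10 and Tlr7 by 1.54 to 1.72 in the same 3 controls, and by 2.88, 2.50 and 2.64 in FL/FL cells after 4-OHT. Tlr2 was the exception in the last condition, with 221 and 231 CPM on day 1 and 249 and 253 CPM on day 4 (log2 change 0.15, SE 0.07, adjusted p = 0.0885). The macrophage marker sum moved with the day as well, from 4393 to 4605 CPM on day 1 to 12638 to 14035 CPM on day 4, and its part in the rise was not tested. In untreated cells the smallest rises lost their calls without 1 library, Tlr2 in WT/FL cells without the first of day 1 or the second of day 4 (both 0.27), and Tlr13 without the first WT/FL library of day 4 (0.21) or the first FL/FL library of day 1 or day 4 (0.22 and 0.24).

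The rise in untreated cells came in steps. From day 1 to day 2, averaged over both untreated genotypes, 8 receptors rose and 0 fell, beside 25.6% and 24% of all genes, with Tlr9 at 1.91, Tlr1 at 1.74, Tlr8 at 1.65, Tlr7 at 1.51 and Tlr3 at 1.38 on the log2 scale. From day 2 to day 3, 7 rose and 1 fell, beside 24.8% and 23.4%, led by Tlr9 at 1.51 and Tlr5 at 1.17 (SE 0.16), while Tlr13 fell by 0.16 (SE 0.05). From day 3 to day 4, 1 rose and 6 fell, beside 10.7% and 11.8%, with Tlr3 falling by 0.64 (SE 0.07) and Tlr13 rising by 0.42 (SE 0.05). Tlr3 stood at -0.17 on the step to day 3 (SE 0.07, adjusted p = 0.0382), not called. The fall of Tlr13 on day 3 lost its call without either FL/FL library of day 2, the first WT/FL library of day 2, or the second of either genotype on day 3 (-0.16 to -0.10). The fall of Tlr8 on day 4, 0.21 on the log2 scale, lost its call without the second library of either genotype on that day (-0.18 and -0.17). Irf7, an interferon-inducible transcription factor, moved with the day in the untreated cells too, from 29.4 and 25.4 CPM on day 1 to 756 and 728 CPM on day 3 and 358 and 353 CPM on day 4 in WT/FL cells, and its part in these steps was not tested.

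The closest genes by pattern were sought over the 16 group means of log2 CPM by Pearson's r, which is a description across groups that share libraries and days. For Tlr3 they were Parp11 (r = 0.995), Mov10 (0.994) and Tor1aip2 (0.993), for Tlr7 Ms4a6c, Ddx60 and Ms4a6b (each 0.997), for Tlr8 Ptafr (0.997), Iqsec2 (0.996) and Naip5 (0.995), and for Tlr9 Ccl8, Mpeg1 and Grina (each 0.997). Tlr13 had Tlk1 (0.972), Serpinb9 (0.948) and Pparg (0.946). Among surface receptors, Tlr1 was closest to F830016B08Rik, Stat5b and Tmem140 (each 0.995), Tlr4 to Ankfy1 (0.988), Lgals8 (0.988) and Ncoa7 (0.987), Tlr6 to Mfap3 (0.983), Arid5a (0.982) and Dhx40 (0.981), and Tlr5 to Dip2b (0.973), Colec12 (0.972) and Qki (0.970). Within the family Tlr1, Tlr7, Tlr8 and Tlr9 had r of 0.967 to 0.992 with one another, whereas Tlr13 and Tlr2 had -0.18.

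The sequence before the start site was searched because several receptors moved together. Of the 10 receptors 8 matched RefSeq's promoter table (GRCm38.p6), with 10 start sites, and the 250 bases before each were searched on both strands for 4 patterns: GAAA followed after any 2 bases by GAAA, the core of an interferon-stimulated response element, TTCNNNGAA, bound by STAT factors, GGGA followed after any 2 bases by TTCC, a form of the kappa B site, and GAGGAAGT, bound by PU.1. Of 32851 such windows 2.98%, 7.02%, 1.21% and 2.44% held them. The interferon-type pattern occurred before 1 start site of Tlr6 as 2 overlapping matches on the opposite strand, at 116 and 110 bases before it. The STAT pattern occurred at 106 bases before Tlr8, and none of the 4 occurred before Tlr9. These 3 windows, which hold no annotated transcript sequence, are given 5′ to 3′ with the matches in capitals.
Tlr6 (chr5:64959167-64959416, minus strand): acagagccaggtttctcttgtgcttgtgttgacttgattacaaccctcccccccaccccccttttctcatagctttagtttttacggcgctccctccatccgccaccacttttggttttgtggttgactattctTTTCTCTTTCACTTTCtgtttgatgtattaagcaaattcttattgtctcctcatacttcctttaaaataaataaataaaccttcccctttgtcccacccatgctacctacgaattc
Tlr8 (chrX:167264330-167264579, minus strand): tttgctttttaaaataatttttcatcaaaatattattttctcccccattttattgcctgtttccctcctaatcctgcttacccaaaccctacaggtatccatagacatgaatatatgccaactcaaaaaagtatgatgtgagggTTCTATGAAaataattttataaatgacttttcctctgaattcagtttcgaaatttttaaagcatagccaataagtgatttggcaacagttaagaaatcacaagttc
Tlr9 (chr9:106222348-106222597, plus strand): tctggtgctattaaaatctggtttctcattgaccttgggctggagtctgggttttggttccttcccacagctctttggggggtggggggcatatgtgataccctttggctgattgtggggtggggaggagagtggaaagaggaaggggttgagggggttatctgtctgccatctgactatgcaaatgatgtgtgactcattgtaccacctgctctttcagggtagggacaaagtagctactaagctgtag
Before Tlr3 the kappa B pattern began 211 bases from the start, in a window that annotated transcripts cover, so only the 30 bases around it are given.
Tlr3 (chr8:45410572-45410601, minus strand): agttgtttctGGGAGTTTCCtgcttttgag
The PU.1 and STAT patterns also occurred before Tlr1, 23 and 228 bases from a different start each, and none of the 4 before Tlr2, Tlr5 and Tlr13. Only these 4 patterns were searched, so other forms of the same sites would have been missed in any window. A match of letters is not a bound site, and no binding was measured here.

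The partners of the receptors were followed in lists of accessory proteins, processing enzymes, adaptors, kinases, transcription factors and inhibitors. Of 16 accessory and trafficking genes, 6 were higher and 3 lower in FL/FL than in WT/FL cells on day 4 after 4-OHT, with a list median of 0.25. Of all genes tested 9.84% were higher and 11.7% lower in this comparison, and the counts of the lists are to be read against these shares. Rises and falls given for the lists are likewise of FL/FL against WT/FL cells, not over time. Cd180, a relative of TLR4 that holds the cofactor MD-1, rose by 1.24 (SE 0.08, adjusted p = 7.32e-13), from 218 ± 17.6 to 515 ± 0.199 CPM (mean ± SD, n = 2), and Tasl, the adaptor that links the endosomal receptors to IRF5, rose by 1.19 (SE 0.10, adjusted p = 5.71e-10). Cd36, a scavenger receptor that works with TLR2 and TLR6, fell by 0.92 (SE 0.09, adjusted p = 2.76e-08), and Hmgb1, a nuclear protein that can carry nucleic acids to TLRs, fell by 0.28 (adjusted p = 0.00801). Cd14, the coreceptor of TLR4, rose by 0.29 (adjusted p = 0.00177), and Hsp90b1, the chaperone of most TLRs, fell by 0.24 (adjusted p = 0.00265). Unc93b1, which carries the endosomal receptors out of the endoplasmic reticulum, stood at 0.20 (adjusted p = 0.0108), not called on day 4 but called on day 2 with 0.25 (adjusted p = 0.00436). Ly96, which encodes the lipopolysaccharide-binding partner of TLR4, stood at 0.39 (adjusted p = 0.0355).

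Of 11 endolysosomal proteases and nucleases, several of which cut endosomal TLRs or their ligands, 6 were higher and 1 lower on day 4 (median 0.34), beside 9.84% and 11.7% of all genes. Ctss, a protease of the endolysosome, rose by 0.95 (adjusted p = 1.63e-12), from 2937 ± 60.5 to 5669 ± 88.5 CPM, and Rnaset2a, an RNase that releases ligands of TLR8 in human cells, rose by 0.64 (adjusted p = 1.48e-06). Rnaset2a and Rnaset2b are near-identical, so their separate values are uncertain. The exonucleases of the endolysosome moved in opposite directions, with Pld4 up by 0.54 (adjusted p = 8.29e-10) and Pld3 down by 0.35 on the log2 scale (-0.35, adjusted p = 1.79e-06). Pld4 is named beside Pld3 after its values were seen.

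Of 6 adaptors, 2 were higher and 0 lower on day 4 (median 0.26), namely Myd88 with 0.55 (SE 0.06, adjusted p = 1.58e-08) and Pik3ap1, an adaptor that links TLRs to PI3K, with 0.64 (adjusted p = 9.64e-10). Ticam1, which encodes the TLR3 adaptor TRIF, stood at 0.22 (adjusted p = 0.0169). Of 16 kinases and ubiquitin ligases, 3 were higher and 3 lower (median -0.11), beside 9.84% and 11.7% of all genes: Peli1, a ligase that modifies IRAK1, rose by 0.63 (adjusted p = 2.78e-06) and the kinase Irak2 by 0.46 (adjusted p = 8.35e-05), while Ikbkg, the scaffold of the IKK complex, fell by 0.74 (adjusted p = 3.75e-08) and Traf3, a ligase on the path to interferon, by 0.36 (adjusted p = 0.000309). Of 7 transcription factors, a list that shares Irf7 with the study's qPCR panel, 3 were higher and 0 lower (median 0.04), with Irf7 at 2.38 (SE 0.21, adjusted p = 1.07e-07), from 490.4 ± 38.5 to 2551 ± 166 CPM, and Irf5, which acts below TLR7 and TLR9, at 0.48 (adjusted p = 1.79e-07). Of 12 inhibitors, 1 was higher and 1 lower (median -0.07), near the shares over all genes. They were Socs1 with 1.80 (adjusted p = 0.00016) and Tollip with -0.21 (adjusted p = 0.00161).

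All 8 genes of an interferon-inducible list were higher on days 2, 3 and 4, with medians of 1.76, 1.35 and 2.89, larger than the value of any receptor on the same day, and 0 of them were called on day 1 (median 0.47). These genes come from the study's own qPCR primers, and the list was drawn up with results of these data known, so this count is not independent evidence of the direction. Within the list, Cxcl10 rose by 3.65 (SE 0.28) and Ifi44 by 3.12 (SE 0.28) on day 4. The other TLR genes of the mouse, Tlr11 and Tlr12, had means of at most 0.738 CPM on day 4 after 4-OHT and were not called.

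**Figure D5:**
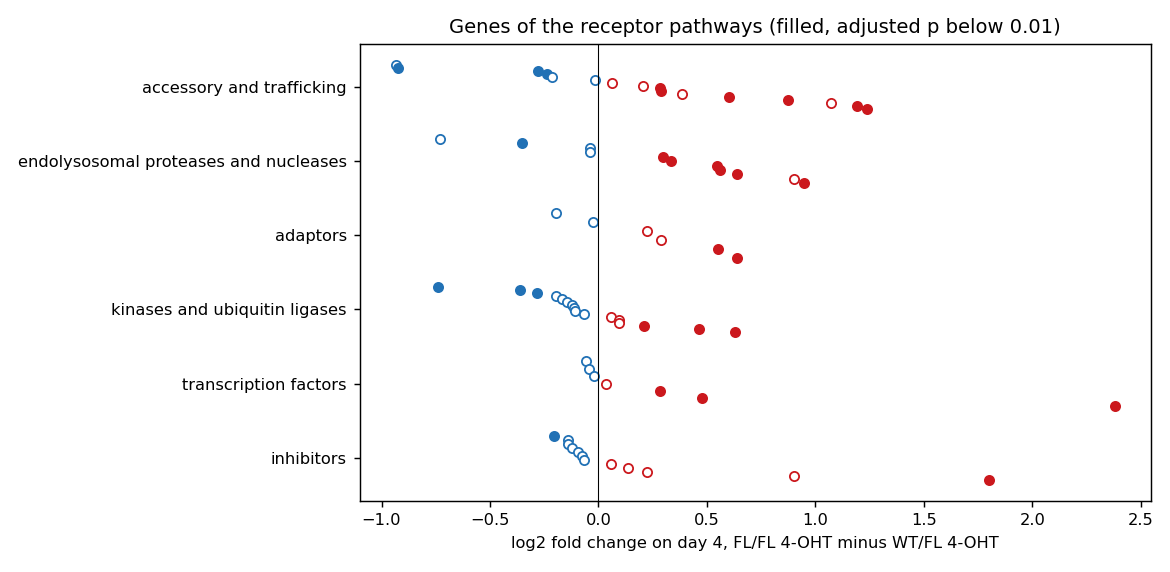
Each point is a gene of 1 of 6 pathway lists, from accessory proteins to inhibitors and without the interferon-inducible list, with the log2 fold change of FL/FL over WT/FL cells after 4-OHT on day 4 on the x axis and the list on the y axis, filled where the adjusted p was below 0.01. Irf7 stands farthest to the right at 2.38 and Socs1 next at 1.80, while Cd36 at -0.92 is the lowest of the called genes.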

How the data were processed

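RNA-seq of 32 BMDM libraries was analysed. According to the paper's methods and the labels, the authors checked reads with FastQC (11.9), estimated transcript abundance with Salmon against GRCm39, summed it to genes with tximport and analysed it with DESeq2 (1.32). The files the authors deposited hold an estimated count for each gene and library as a whole number, without normalization. The settings of the Salmon run are not given in the sources used here. Estimated counts share reads between similar transcripts by a model, which bears on Tlr1 and Tlr6.

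Of 54281 identifiers, 51048 matched GENCODE vM39 and 0.320% of counts did not. Genes with too few counts were removed (filterByExpr, minimum count 10), leaving 15257. Counts were scaled by TMM and fitted with edgeR (4.0.16, R 4.3.3) by the robust quasi-likelihood method with 1 mean for each of the 16 groups, leaving 16 residual degrees of freedom and a common biological coefficient of variation of 0.0912. All comparisons are contrasts of this fit, and many share libraries. P-values were adjusted by Benjamini-Hochberg over all genes and called below 0.01. CPM values are counts per 1000000 tested counts after TMM scaling. An exact permutation test of 2 against 2 libraries cannot give a p below 0.33 and was not used. Precision is limited by 2 libraries a group at 35120505 to 63760884 counts each.

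The members and lists were chosen with earlier results of these data known. All 10 receptors were named, with Trex1, Unc93b1, Hsp90b1, Cd14, Ly96, Myd88, Ticam1 and Irf7. For each pathway list the 2 largest called rises and falls on day 4 were added, and for each receptor the 3 genes most like it, those of Tlr2 not being reported here. Alternatives were DESeq2 (1.42.0), RLE and upper-quartile factors, no filter, limma-voom (limma 3.58.1) with a replicate block, the 16 libraries with 4-OHT alone, other thresholds and leaving out each library. The fit was tested on simulated data: for the day 4 genotype difference, on 14798 genes, 60 of 100 genes changed by 0.5 and 94 of 100 changed by 1 on the log2 scale were recovered. Promoter sequences came from RefSeq (GRCm38.p6), for 8 receptors, with Tlr4 and Tlr7 not matched.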

Additional observations from a re-analysis of the deposited data

Results flagged for a closer look

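The genotype difference depended on the treatment for several receptors, as tested by the interaction term of edgeR's quasi-likelihood fit with Benjamini-Hochberg adjustment. Given on the log2 scale is the genotype difference after 4-OHT minus that in untreated cells. On day 2 it was 1.41 (adjusted p = 7.8e-08) for Tlr3. For Tlr7 it was 0.50 (adjusted p = 0.00194) and for Tlr8 0.51 (adjusted p = 0.00166). On day 3 it was 0.85 (adjusted p = 0.00012) for Tlr3 and 0.50 (adjusted p = 0.00101) for Tlr13. On day 4 it was 1.57 (adjusted p = 2.88e-09) for Tlr3, 1.05 (adjusted p = 2.51e-08) for Tlr7, 0.69 (adjusted p = 2e-05) for Tlr8, 0.64 (adjusted p = 1.52e-05) for Tlr13, 0.48 (adjusted p = 0.00164) for Tlr1 and 0.36 (adjusted p = 0.00581) for Tlr4.

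The genotype difference after 4-OHT also differed between successive days by the same edgeR test, a comparison chosen after the data were seen. Tlr3 gained 1.20 (adjusted p = 2.51e-06) and Tlr8 0.53 (adjusted p = 0.00204) from day 1 to day 2. Tlr3 gained 0.59 (adjusted p = 0.00482) and Tlr7 0.47 (adjusted p = 0.0039) from day 3 to day 4. Of all genes 3.02% were called for the step to day 2 and 3.7% for that to day 4. The 2 steps to day 4 were not called in the fit of the 16 libraries with 4-OHT alone. Neither these 2 nor the day 2 step of Tlr8 stood in every fit that left out 1 library.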

How the results depend on the processing

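Of 190 receptor values (all comparisons but those of day 1, WT/FL treatment and untreated genotypes), DESeq2 left 182 on the same side of the threshold with the same direction and brought 8 past it, RLE factors 189 and 1, upper-quartile factors 187 and 1, and no filter on low counts 174 and 16. With upper-quartile factors 2 uncalled values turned, Tlr6 in the day 2 interaction (-0.0063) and Tlr13 from day 1 to day 2 (-0.0076). Without the filter the interaction called 5 receptors on day 2 and 5 on day 3, and 4-OHT in WT/FL cells called 1 on day 4. For the steps of the genotype difference, DESeq2 called 5 and no filter 5 on day 2, against 2, and no filter called 2 on day 3, against 0. At an adjusted p below 0.05 the interaction called 7 on day 2 and 5 on day 3.

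With the study's thresholds 0 receptors were called for the genotype difference on days 2, 3 and 4, the interaction on days 2 and 3, 4-OHT in FL/FL cells on days 2 and 3, and the step to day 4. There was 1 for the day 4 interaction, 4-OHT in FL/FL cells on day 4 and the step to day 3. There were 4 from day 1 to day 4 in both untreated genotypes and for the step to day 2, and 5 from day 1 to day 4 in both genotypes after 4-OHT.

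The replicate block used runs of consecutive title numbers, a reading of the titles that the labels do not state. Within a genotype, the difference of each gene between the 2 libraries of a group, second run minus first, was correlated between groups. The r was -0.0078 to 0.144 (median 0.063) in FL/FL and 0.024 to 0.118 (median 0.071) in WT/FL cells. The consensus correlation of libraries in a run was 0.071. These values were low with positive medians. What the runs stand for is not given, so whether they pair samples was not settled. With the block the interaction called 6 on day 2 and 4 on day 3, 179 values kept their side and direction, and 11 passed the threshold. In the fit of the 16 libraries with 4-OHT, 77 kept theirs, 1 passed and 2 were lost.

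A fit without 1 library assumes that the lone sample left varies like the other groups. Over these fits 1006 values kept their side and direction, 82 lost the call, 7 gained it and 25 turned, all 25 being uncalled values. The number called ran from 2 to 7 (day 2) and 3 to 6 (day 3) for the genotype difference, 1 to 4 and 1 to 3 for the interaction, and was 5 throughout for 4-OHT in FL/FL cells on day 3. Values that turned were those of Tlr6 in the genotype difference on day 2 (-0.19 to 0.13), in the interaction on day 2 (-0.16 to 0.16) and day 3 (-0.23 to 0.0035), and for 4-OHT in FL/FL cells on day 2 (-0.018 to 0.31), day 3 (-0.17 to 0.058) and day 4 (-0.066 to 0.048). Tlr5 turned for 4-OHT in FL/FL cells on day 2 (-0.10 to 0.29) and for the step of the genotype difference to day 4 (-0.17 to 0.41). Other steps that turned were Tlr1 to day 2 (-0.057 to 0.14) and day 3 (-0.032 to 0.076), and to day 3 Tlr2 (-0.061 to 0.23), Tlr4 (-0.038 to 0.061), Tlr6 (-0.23 to 0.085) and Tlr7 (-0.034 to 0.14). The cause was not tested. With 2 libraries a group, the simulation of the day 4 genotype difference recovered 60 of 100 differences of 0.5 on the log2 scale. It changed 100 genes of each size among 14798, whereas 3284 of 15257 genes were called in this comparison here. The share recovered may therefore not carry over to these data or to other comparisons. An uncalled value does not show that groups did not differ. Over all genes, the day 1 genotype difference held 3 calls, and 8 by DESeq2.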
